A study of Homo sapiens with 12 samples.

Results

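The splicing factor genes described here are the protein-coding genes whose GENCODE symbols start with HNRNP, SRSF, SNRP, SF3A, SF3B or PRPF, with SNRPN left out. The symbol rule gave 72 genes. At least 1 unique molecular identifier (UMI) was counted for 69 of them, of 32945 genes with a UMI in any table. By symbol they fell into 27 hnRNP genes, 13 PRPF genes, 12 SR protein genes, 11 Sm and snRNP genes and 9 SF3 genes. HNRNPCL2, HNRNPCL3 and HNRNPUL2-BSCL2 had no UMI in any library.

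The spliceosome removes introns from pre-mRNA and is assembled anew on each intron from small nuclear ribonucleoproteins (snRNPs) and many other proteins. Sm proteins form the ring around the snRNAs, SF3A and SF3B proteins belong to the U2 snRNP that holds the branch point, and most PRPF proteins serve the tri-snRNP or the catalytic steps. SR proteins bind exonic enhancers through RNA recognition motifs and carry a serine-arginine tail, and hnRNP proteins coat nascent RNA and often act against exon inclusion. These genes are transcribed in nearly all cell types, and many of them control their own mRNA through alternative splicing.

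The study compared LAST-seq, which amplifies single-stranded RNA directly by T7 transcription and tags each molecule with a UMI, with CEL-seq2, which makes double-stranded cDNA first. HEK293T, a human embryonic kidney line with the SV40 large T antigen, was left unedited and was profiled as sorted live single cells in 2 libraries per assay of 10 wells each. Single-cell lysate was profiled in 1 library per assay, and 15 pg of total RNA in 1 LAST-seq library. eHAP1 is a haploid human line of leukaemic origin, of which live haploid G1 cells were sorted as WT and as SCC4KO, a Cas9 knockout of SCC4 (gene MAU2), the partner of NIPBL in loading cohesin. Knockout lines were grown out from single edited cells, and the cells profiled came from a clonally expanded population. Upon subcloning, eHAP1 cells were grown with 10-Deacetylbaccatin-III to keep them haploid. Each eHAP1 genotype was 1 GEO sample in 2 batches, with 73 and 75 WT cells and 77 and 76 SCC4KO cells.

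The libraries held between 797568 and 12291125 UMIs, and single eHAP1 cells held from 18004 to 925612 UMIs in WT and from 44947 to 320102 in SCC4KO. MAU2 was at 44.3 and 41.2 CPM (UMIs of the gene per 1000000 UMIs of the library) in the WT batches and at 9.18 and 14.5 in the SCC4KO batches. The tags count transcript ends and do not read the edited site, so this checks the amount of transcript only. Markers did not all follow the labelled lines. PAX2, a kidney factor, was at 0 and 1.33 CPM in HEK293T and at 14.9 and 16.0 in eHAP1 WT. LHX1 was at 0 and 7.95 in HEK293T and at 7.6 and 8.79 in WT. BCR was higher in HEK293T (23.2 and 18.6) than in eHAP1 WT (6.93 and 5.61). ABL1 was too, at 27.4 and 43.1 against 3.39 and 6.43. NEFL, a HEK293T marker, was at 29.5 and 9.94 in HEK293T, at 0 in both WT batches and at 7.93 and 14.5 in SCC4KO. NEFM was at 0 in both HEK293T libraries by LAST-seq and in both WT batches. LMO2 and TAL1, blood markers, stayed at or under 4.21 CPM in every cell library.

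Well-counted genes agreed more closely between the eHAP1 batches than independent counting would. For splicing factor genes with a mean of at least 5 UMIs per cell, the squared difference between batches over its counting variance had a median of 0.239 in WT and 0.0536 in SCC4KO, where independent counting gives 0.455. For members under 5 UMIs per cell it was 3.38 and 1.19, above counting. For the well-counted members it was 1.82 between the LAST-seq and 8.39 between the CEL-seq2 HEK293T libraries. The study's methods name a batch adjustment, ComBat-seq, before the bursting analysis, and whether the deposited UMIs precede it is not given in the sources used here. The spread between batches is therefore no measure of biological error, and the genotypes were compared mainly by folds with no test. The cell barcodes shared by the batches, 70 in WT and 75 in SCC4KO, gave a median squared difference over counting variance of 1.34 and 1.32, beside 1.40 and 1.43 for other pairs of cells.

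Promoters are shown for members with a large difference between genotypes or lines, from the RefSeq table of GRCh38.p14, which holds 250 bases before to 50 bases after each start. It matched 62 of the 72 genes. HNRNPA1, HNRNPA1L3, HNRNPCL3, PRPF3, PRPF39, PRPF4B, SF3B3, SNRPD1 and SRSF2 were among those with no entry. Capitals mark CCGGAA (the core bound by ETS factors), GGGCGG (the GC box) or CCAAT (the CCAAT box) on either strand. SNRPB2 lies at chr20:16729776-16730075 on the plus strand, PRPF38B at chr1:108692060-108692359 plus, PRPF18 at chr10:13586715-13587014 plus, SRSF4 at chr1:29181851-29182150 minus and HNRNPH1 at chr5:179634735-179635034 minus.
SNRPB2: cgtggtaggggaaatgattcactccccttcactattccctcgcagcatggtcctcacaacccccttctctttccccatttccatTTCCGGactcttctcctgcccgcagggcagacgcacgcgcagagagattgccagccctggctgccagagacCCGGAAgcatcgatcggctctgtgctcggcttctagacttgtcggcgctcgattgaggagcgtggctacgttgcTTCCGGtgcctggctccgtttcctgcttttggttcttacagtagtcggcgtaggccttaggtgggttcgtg
PRPF38B: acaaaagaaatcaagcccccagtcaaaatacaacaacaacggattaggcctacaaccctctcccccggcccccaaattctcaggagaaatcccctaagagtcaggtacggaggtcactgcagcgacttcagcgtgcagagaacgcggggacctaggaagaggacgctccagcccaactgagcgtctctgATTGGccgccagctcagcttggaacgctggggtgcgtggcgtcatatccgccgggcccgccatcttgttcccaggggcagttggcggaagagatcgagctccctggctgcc
PRPF18: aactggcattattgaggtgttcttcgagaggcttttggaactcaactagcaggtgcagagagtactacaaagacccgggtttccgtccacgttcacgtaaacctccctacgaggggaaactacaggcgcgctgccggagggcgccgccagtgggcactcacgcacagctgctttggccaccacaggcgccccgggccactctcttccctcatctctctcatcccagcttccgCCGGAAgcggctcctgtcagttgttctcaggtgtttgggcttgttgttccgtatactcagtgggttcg
SRSF4: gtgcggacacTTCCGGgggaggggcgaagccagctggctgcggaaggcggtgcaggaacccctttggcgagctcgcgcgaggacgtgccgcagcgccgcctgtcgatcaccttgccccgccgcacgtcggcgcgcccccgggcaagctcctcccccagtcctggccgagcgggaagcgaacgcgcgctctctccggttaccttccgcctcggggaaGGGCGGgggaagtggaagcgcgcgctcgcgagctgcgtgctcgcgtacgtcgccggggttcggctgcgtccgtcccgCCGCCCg
HNRNPH1: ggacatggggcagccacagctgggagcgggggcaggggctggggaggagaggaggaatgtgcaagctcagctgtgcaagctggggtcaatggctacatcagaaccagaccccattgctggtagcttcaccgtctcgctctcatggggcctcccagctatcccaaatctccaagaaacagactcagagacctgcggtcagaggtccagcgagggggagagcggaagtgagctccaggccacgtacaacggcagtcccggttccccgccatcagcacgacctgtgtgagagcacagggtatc
The SNRPB2 promoter held CCGGAA 3 times, and the PRPF18 and SRSF4 promoters held it once each. The SRSF4 promoter also held GGGCGG 2 times, the PRPF38B promoter held CCAAT once, and the HNRNPH1 promoter held none of these letters. CCGGAA was in 40.3% of the 62 member promoters and in 23.1% of 15345 promoters of protein-coding genes, and CCAAT in 46.8% and 36.6%. The shares were 59.7% and 59.2% for GGGCGG, 9.68% and 9.63% for TATAAA (the TATA box) and 3.23% and 4.25% for GCATGCGC (the core bound by NRF1). Median GC content was 61.8% for the members and 63.0% for all promoters. These are descriptions of letters in a window, not of binding.

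Splicing factor transcripts made up about the same small part of the transcriptome in every eHAP1 library, and a few genes held much of it. Summed over all members they took 1.88% and 1.91% of UMIs in the WT batches, 1.85% in both SCC4KO batches, 2.25% and 2.27% in LAST-seq HEK293T and 1.80% and 1.63% in CEL-seq2 HEK293T. SRSF6, HNRNPC, HNRNPM, SRSF2 and SNRPB2 together held 39.8% of the member UMIs in eHAP1 WT. In HEK293T the first 5 members held 34.9% by LAST-seq and 30.5% by CEL-seq2, and HNRNPA2B1, which binds and packages pre-mRNA, led in both. A UMI marks 1 molecule at its 3′ end, so levels were not divided by transcript length.

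**Figure D1:**
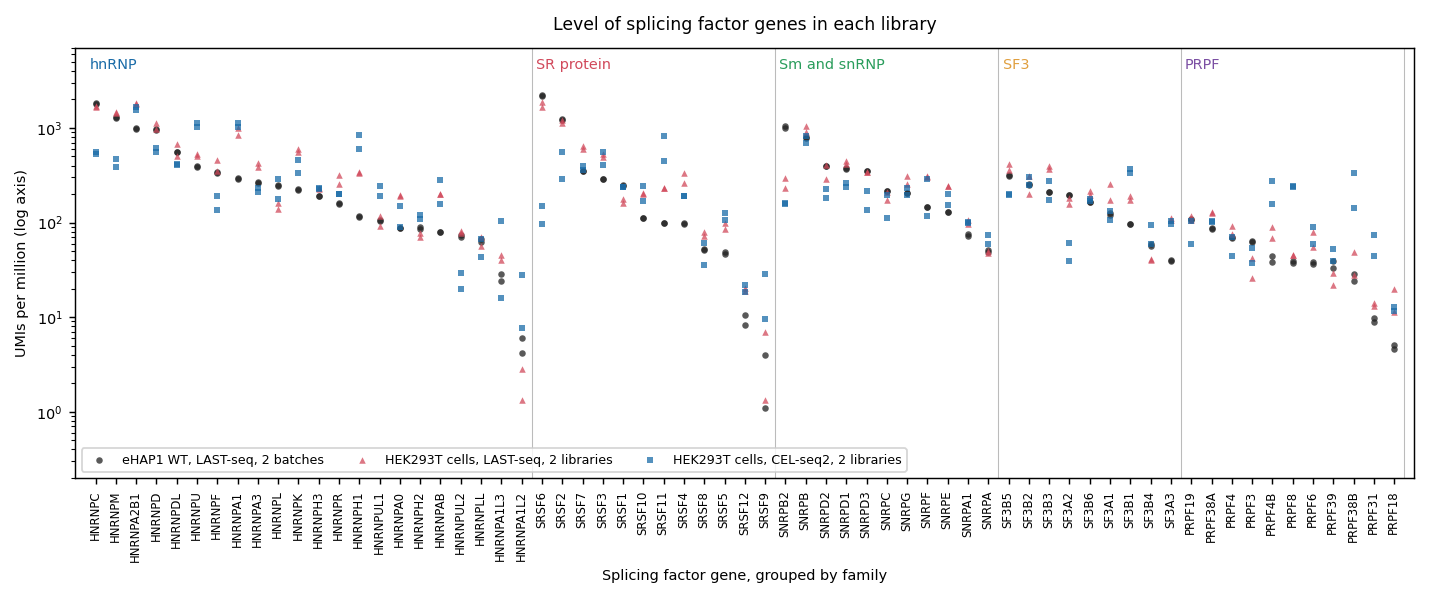
Level of 65 splicing factor genes detected in every library of cells shown, on a log axis in UMIs per 1000000 UMIs of the library (CPM), with 1 point per library or batch and the genes ordered by eHAP1 WT level within each family. SRSF6 sits at 2157 and 2217 in eHAP1 WT and at 150 and 95.56 in CEL-seq2 HEK293T, and the PRPF genes lie lower than most genes of the other families.

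The hnRNP genes held the largest share of member UMIs in eHAP1 WT, 44%, followed by the SR protein genes with 24.9%, the Sm and snRNP genes with 19.8%, the SF3 genes with 7.67% and the PRPF genes with 3.68%. Among hnRNP genes HNRNPC, which binds uridine tracts in nascent RNA, was highest in WT, with 1783 and 1821 CPM, and the HNRNPA1 relative HNRNPA1L2 was lowest of those detected, with 5.975 and 4.149. SR protein genes spanned a wider range. SRSF6, a regulator of alternative exons on chromosome 20 (43457893 to 43466046, plus strand, GRCh38), was the highest member of all at 2157 and 2217 CPM. SRSF9 was at 1.086 and 3.987 CPM, from 8 and 49 UMIs, and it lies over other annotated genes on both strands.

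Among Sm and snRNP genes SNRPB2, the U2 snRNP protein that binds U2 snRNA, was highest in WT with 1008 and 1051 CPM. SNRPA, its counterpart in the U1 snRNP, was lowest, with a mean of 49.64. The SF3 genes ranged only 7.84-fold, from SF3A3, a subunit of SF3A, at 39.93 to SF3B5, a small subunit of SF3B, at 313. The lowest PRPF gene detected was PRPF18, which acts at the second catalytic step, at 4.871. Between the LAST-seq HEK293T libraries, the median absolute log2 difference of a member with at least 5 UMIs per cell was 0.139 and the largest 0.796. Between the eHAP1 WT batches these were 0.0251 and 0.205, which is no measure of error. Members of close level therefore cannot be ordered.

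Some members were barely or not detected. PRPF40B had no UMI in eHAP1 WT or LAST-seq HEK293T cells, which allows up to 0.153 and 1.02 CPM. It had 7 and 1 UMIs in the SCC4KO batches and 6 and 3 in the CEL-seq2 libraries. HNRNPCL1 and HNRNPCL4, intron-poor copies of HNRNPC, were seen only by CEL-seq2, with 3 UMIs and 1 UMI. These limits and all intervals given here cover counting error only. The order of levels over 66 genes was closer between the cell lines within LAST-seq (Spearman correlation 0.924, across genes) than between LAST-seq and CEL-seq2 within HEK293T (0.757).

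Many of these genes have processed pseudogenes that could take some of their UMIs. The annotation lists 199 such copies for 34 members, and 148 of them had a UMI. Over all these members the copies held 2.08% of the UMIs of gene plus copies in eHAP1 WT, 2.82% in SCC4KO, 2.29% in LAST-seq and 3.99% in CEL-seq2 HEK293T. SNRPE and SNRPG, small proteins of the Sm ring, had the most on copies in eHAP1 WT, 46.6% and 42.2%, followed by HNRNPA3, an hnRNP A/B protein, with 24.3%. By CEL-seq2 in HEK293T HNRNPA3 was ahead with 33.1%, beside 27.5% for SNRPE and 30.9% for SNRPG. For HNRNPA1 the copies held 9.15% in WT and 17.6% in SCC4KO, and for HNRNPC they held 0.0203% by LAST-seq and 14.9% by CEL-seq2 in HEK293T. Levels of these genes are uncertain to that extent. Of the 69 detected members, 19 overlap another annotated gene on the same strand and 31 on the other strand, and whether counting used strand is not given in the sources used here.

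LAST-seq and CEL-seq2 differed in which splicing factor genes they favoured, and the families split. Relative to CEL-seq2 on the same cell line, 20 of the 66 members tested were higher by LAST-seq and 7 were lower, by edgeR's quasi-likelihood test with Benjamini-Hochberg adjusted p under 0.05. Over all 11261 genes tested, 11.3% were higher and 14.9% lower. The share among genes of like level was not taken. The median log2 fold was 0.56 over members and -0.05 over all genes. PRPF genes had 0 higher and 5 lower of 12, whereas SF3 genes had 4 higher and 0 lower of 9 and Sm and snRNP genes 4 higher and 0 lower of 11. Of the SR protein genes 4 were higher and 1 lower of 12, and of the hnRNP genes 8 were higher and 1 lower of 22. Of 56 other spliceosome genes tested, 13 were higher and 7 lower.

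SRSF6 differed most. It had 1861 and 1658 CPM by LAST-seq and 150 and 95.56 by CEL-seq2, with no overlap, a log2 fold of 4.18 ± 0.352 (SE, 2 libraries per assay, edgeR adjusted p = 0.000186). In lysate, with 1 library per assay, it had 1653 (95% exact binomial interval 1565 to 1744) against 147 (122 to 175). On the same strand 1 gene without a symbol overlaps SRSF6. Processed copies held 5.58% of the UMIs of SRSF6 plus copies by CEL-seq2 and 0% by LAST-seq in HEK293T cells. The part of the overlap and the copies in the difference was not tested. The next members higher by LAST-seq differed far less. HNRNPM, a splicing repressor and activator bound to GU-rich RNA, had 1455 and 1476 against 474 and 389 CPM (log2 fold 2.09, adjusted p = 0.00201). SF3A2, a subunit of SF3A, had 157 and 183 against 39.28 and 60.5 (log2 fold 2.06, adjusted p = 0.00379). HNRNPUL2, a relative of the scaffold protein HNRNPU, had 77.25 and 82.19 against 29.62 and 19.94 (log2 fold 2.01, adjusted p = 0.00409), and it overlaps the readthrough gene HNRNPUL2-BSCL2.

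The members lower by LAST-seq were mostly PRPF genes. PRPF38B, a relative of the tri-snRNP protein PRPF38A, had 28.09 and 49.05 CPM by LAST-seq and 334 and 142 by CEL-seq2 (log2 fold -2.27, adjusted p = 0.005). PRPF8, the large U5 protein at the heart of the spliceosome, had 44.95 and 45.07 against 243 and 235 (log2 fold -2.09, adjusted p = 0.00169). PRPF31, a U4/U6 protein mutated in retinitis pigmentosa, had 14.05 and 13.26 against 74.7 and 44 (log2 fold -1.77, adjusted p = 0.0138). None of these overlapped between assays. HNRNPA1L2 passed with a log2 fold of -2.81 (adjusted p = 0.0463), but it rests on 4 and 2 UMIs by LAST-seq and 12 and 41 by CEL-seq2, and in lysate it had 8 UMIs by each assay.

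**Figure D2:**
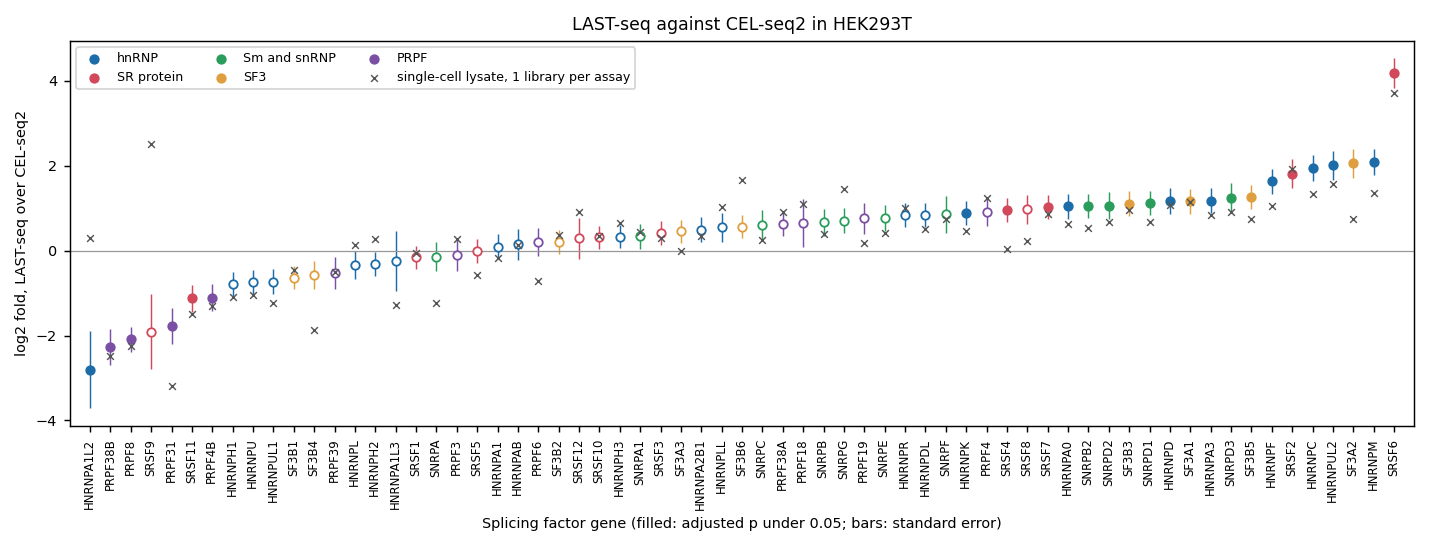
Log2 fold of LAST-seq over CEL-seq2 for 65 of the 66 splicing factor genes tested, ordered by value and coloured by family, with standard errors, filled points for adjusted p under 0.05 and crosses for lysate with 1 library per assay. SRSF6 stands alone at the right with 4.18, and purple PRPF points fill much of the left end.

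Lysate libraries, which the test did not use, gave the same sign as cells for 58 of the 66 members and for 26 of the 27 called, where 2649 of 2946 called genes did. Leaving out a library leaves 1 library in an assay, so only folds are given. The median log2 fold over members then ran from 0.452 without CEL-seq2 replicate 1 to 0.694 without CEL-seq2 replicate 2. Over all genes it ran from -0.169 without LAST-seq replicate 2 to -0.00357 without CEL-seq2 replicate 1. Scaled to total UMIs instead of TMM, 12 were higher and 11 lower, where 6.78% and 19.6% of all genes were. CEL-seq2 libraries had a lower mitochondrial share (7.48% and 9.24%, against 16.6% and 14.3% by LAST-seq), whose part in the result was not tested.

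HEK293T cells held more of several splicing factor transcripts than eHAP1 WT cells, and 2-fold rises came at a rate near that of other genes. With LAST-seq, 10 of 64 members tested were at least 2-fold higher in both HEK293T libraries than in both eHAP1 WT batches, and 1 was lower. Of 10789 genes tested, 13.8% passed as higher and 11.6% as lower, so the members called higher are close to the background in number and those called lower are below it. Both HEK293T libraries lay above both WT batches for 41 of the 64 members, a larger share than the 44.6% of all genes. They lay below for 14 of the 64, a smaller share than the 30.1% of all genes. The share among genes of like level was not taken, so these gaps are not read as results about the members. The median log2 fold was 0.36 over members and 0.22 over all genes, so much of the members' shift is that of all genes. With 1 GEO sample of eHAP1 WT the lines were compared mainly by folds, and tests on library and batch sums are given only as alternatives.

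HNRNPA1, which represses exons and shuttles to the cytoplasm, had the largest fold among members higher in HEK293T, with 843 and 993 CPM in HEK293T and 290.2 and 293 in eHAP1 WT, 3.14-fold higher. SRSF4, a large SR protein, had 263 and 333 against 96.82 and 98.04, 3.04-fold higher. HNRNPH1, which binds G tracts, had 331 and 339 against 116 and 114, 2.91-fold higher. The libraries of the lines were far apart for these genes. PRPF18 was 3.11-fold higher at 11.24 and 19.88 against 4.617 and 5.126, but its HEK293T values rest on 16 and 30 UMIs, and edgeR on the sums gave an adjusted p of 0.0659. The other members called higher were SF3A3, HNRNPK, HNRNPAB, SRSF11, HNRNPA0 and SNRPF, between 2.09-fold and 2.76-fold.

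SNRPB2 was the only member called lower in HEK293T, with 297 and 232 CPM against 1008 and 1051 in eHAP1 WT, 3.92-fold lower. In the Sm and snRNP family as a whole, both HEK293T libraries lay above both WT batches for 6 genes and below for 3 of 11, and SNRPF was 2.09-fold higher. Of 55 other spliceosome genes tested, 4 were called higher, BCAS2 (7.16-fold), CWC22 (4.85-fold), SART1 (3.73-fold) and CWC15 (2.9-fold), all spliceosome proteins. SRRM1, a coactivator of SR proteins, was 4.24-fold lower and LSM4, of the U6 ring, 2.84-fold lower.

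The cell line cannot be told apart from culture, sorting, pool size and depth here. By the study's methods HEK293T grew in DMEM and eHAP1 in IMDM, the latter with 10-Deacetylbaccatin-III upon subcloning. HEK293T cells were not gated for G1, were pooled by 10 where eHAP1 cells were pooled by 80, and their reads were subsampled. The summed level of 10 genes of cycling cells was 665 and 1173 CPM in HEK293T and 688 and 674 in eHAP1 WT, and UBE2C was at 22.5 and 83.5 against 0.679 and 0.407; their part in the result was not tested. TMM scaling moved the median of all genes to -0.05 and left 5 members higher, HNRNPA1, HNRNPH1, HNRNPK, SF3A3 and SRSF4. edgeR on library and batch sums called 21 higher and 8 lower of 66 members, where 33.6% of all genes were called in either direction. The share among genes of like level was not taken here either.

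Few splicing factor genes differed by 2-fold between SCC4KO and WT cells. Of 64 members tested, 3 were at least 2-fold higher in both batches and 1 was at least 2-fold lower, where 3.71% and 3.65% of 9782 genes were. The members called higher were HNRNPA1L3, PRPF38B and HNRNPA1, and the member called lower was SNRPB2. The median log2 fold was 0.03 over members and 0.03 over all genes. Both SCC4KO batches lay above both WT batches for 32 of the 64 members and below for 27. Each is a larger share than that of all genes, 40.6% and 36.2%. The share among genes of like level was not taken, so these gaps are not read as results about the members. With 1 GEO sample per genotype, these values compare 2 sets of cells, and clone and genotype cannot be told apart.

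SNRPB2 moved most. It had 1008 and 1051 CPM in the WT batches and 301 and 297 in the SCC4KO batches, 3.44-fold lower. The cells of the genotypes hardly met: the 10th percentile of WT cells was at 822 and 813 CPM, and the 90th percentile of SCC4KO cells at 376 and 374. SNRPB2 lies on chromosome 20 (16729961 to 16742564, plus strand), where 1 gene without a symbol overlaps it on the other strand. HEK293T had 297 and 232 CPM by LAST-seq. Which of the eHAP1 groups changed was not tested. The comparison with HEK293T and that with SCC4KO share the WT batches, so they are not independent. The WT level of SNRPB2 lay above both.

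HNRNPA1 had 290.2 and 293 CPM in WT and 622 and 626 in SCC4KO, 2.14-fold higher. Its near-identical relative HNRNPA1L3 had 28.65 and 24.16 in WT and 62.69 and 62.99 in SCC4KO, 2.39-fold higher, and how reads were shared between them and the HNRNPA1 pseudogenes is not known. Summing the gene and its processed copies kept HNRNPA1 as called higher, with a log2 fold of 1.22, but under TMM scaling it fell to 1.04 and lost its call, and SRSF12 gained one. PRPF38B had 28.38 and 23.84 in WT and 63.16 and 56.31 in SCC4KO, 2.29-fold higher. For these genes the genotypes did not overlap between batches.

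Just under the threshold, SRSF12, an SR protein that represses splicing, was 1.98-fold higher in batch 1 and 2.58-fold in batch 2, at 10.59 and 8.299 against 21 and 21.51 CPM. SF3B3, a scaffold subunit of SF3B, was 1.83-fold higher at 389 and 388 against 211 and 212. PRPF38A, a tri-snRNP protein, was 1.56-fold lower, SRSF2 1.47-fold lower and SRSF1 1.45-fold lower, the last pair being classic enhancer-binding SR proteins. SRSF6, the most abundant member, was at 2194 and 2196 in SCC4KO, next to its WT values. Without batch 1, 5 members passed as higher, with HNRNPA1L2 and SRSF12 added. Of 56 other spliceosome genes tested, BUD31, a catalytic-stage protein, was 4.36-fold higher and SRRM1 2.53-fold higher, and 0 passed as lower, a count of a fold threshold with no test.

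**Figure D3:**
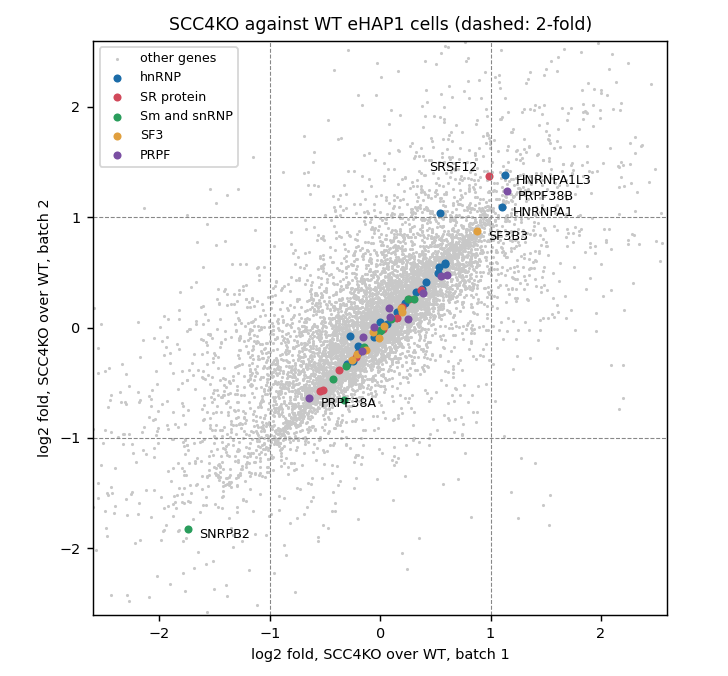
Log2 fold of SCC4KO over WT eHAP1 cells in batch 1 (x axis) and batch 2 (y axis) for splicing factor genes by family over all genes tested in grey, with dashed lines at 2-fold and some other genes outside the axes. HNRNPA1L3, PRPF38B and HNRNPA1 sit past the upper lines and SNRPB2 past the lower ones, while most members lie near 0.

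edgeR on the batch sums, with an adjusted p under 0.05, called 17 members higher and 20 lower of 66, where 29.5% of all genes passed in either direction. In WT 58 members averaged at least 5 UMIs per cell, and better counted genes pass more easily. The share among genes of like level was not taken, so the gap is not read as a result about the members. With the batch as a replicate block it called 15 higher and 19 lower, where 31.9% of all genes passed. In these fits SNRPB2 had a log2 fold of -1.85 (adjusted p = 5.76e-07 without the block). These p-values rest on the spread between batches, which was below counting noise for well-counted members and above it for those under 5 UMIs per cell. The mitochondrial share was 20.8% and 21.0% in WT and 21.0% and 21.2% in SCC4KO, and the cycling list summed to 688 and 674 in WT and 658 and 655 CPM in SCC4KO. Within that list CDK1 was at 106 in both WT batches and at 46.2 and 48.3 in SCC4KO, and CCNB1 at 104 and 103 and at 129 and 127.

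In the deposited counts, splicing factor transcripts varied between eHAP1 cells little more than counting predicts. Whether the batch adjustment named in the methods had changed these counts is not known, so their variance may in part reflect it. The same limit holds for the likeness of dispersion between batches and for correlations between cells. The dispersion is the variance of a gene's UMIs over cells divided by that expected from counting noise given each cell's total, so 1 is counting noise alone. Its median over the members was 1.18 and 1.37 in the WT batches and 1.23 and 1.30 in the SCC4KO batches, beside 1.18, 1.34, 1.26 and 1.23 over all genes that averaged 1 UMI per cell or more. It was above 1 for 54 of 62 and 57 of 63 members in WT, where 79.6% and 88.6% of all genes were. Ranked among the 200 genes nearest in mean level, the median member stood at percentile 48.6 in WT and 51.0 in SCC4KO. The variance beyond counting, as an excess squared coefficient of variation (CV), had a median of 0.0075 and 0.00811 in WT and 0.00921 and 0.00989 in SCC4KO. The families did not keep an order between batches. PRPF genes had a median dispersion of 1.08 and 1.37 in WT, and Sm and snRNP genes 1.32 and 1.26.

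By dispersion in WT, the highest members were mostly abundant genes. SNRPB2 had a dispersion of 2.72 and 4.08 in the WT batches and 1.58 and 1.85 in SCC4KO. The dispersion grows with the mean, and the excess squared CV of SNRPB2 was 0.0138 and 0.025 in WT and 0.0191 and 0.0159 in SCC4KO, so on that scale the genotypes overlapped. SRSF6 had a dispersion of 2.47 and 3.39 in WT and 2.51 and 3.82 in SCC4KO. Its UMIs per cell ran from 80 to 782 in WT batch 1, with a CV of 0.472, where counting and cell totals gave 0.47. SNRPB, which makes the Sm proteins B and B′, followed at 1.73 and 2.21 in WT and 1.34 and 1.63 in SCC4KO. HNRNPC had 1.74 and 2.08 in WT and 1.16 and 1.29 in SCC4KO, with an excess squared CV of 0.00239 and 0.00268 in WT.

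PRPF3, a U4/U6 protein, was noisy at a low level, with a dispersion of 1.81 and 1.97 in WT and 2.83 and 1.76 in SCC4KO. Its excess squared CV in WT, 0.077 and 0.0712, was above that of SNRPB2 and HNRNPC. The dispersion in SCC4KO batch 1 fell to 1.11 when only cells between the 10th and 90th percentile of total UMIs were used, and its cells there ran up to 45 UMIs with a median of 6. At the other end SF3B2, a core SF3B subunit, PRPF4B, a kinase that phosphorylates tri-snRNP proteins, and PRPF38A averaged 0.949, 0.959 and 0.967 in WT, at counting noise. HNRNPA3, named after its values were seen, had 2.29 and 3.66 in SCC4KO against 1.43 and 1.86 in WT, and 18.5% to 24.3% of its eHAP1 UMIs were on copies. The order of the members by dispersion was shared between batches, with a Spearman correlation of 0.615 in WT over 62 members and 0.774 in SCC4KO over 63, where all genes gave 0.158 and 0.153. These are correlations across genes, which share the level of a gene in both batches.

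**Figure D4:**
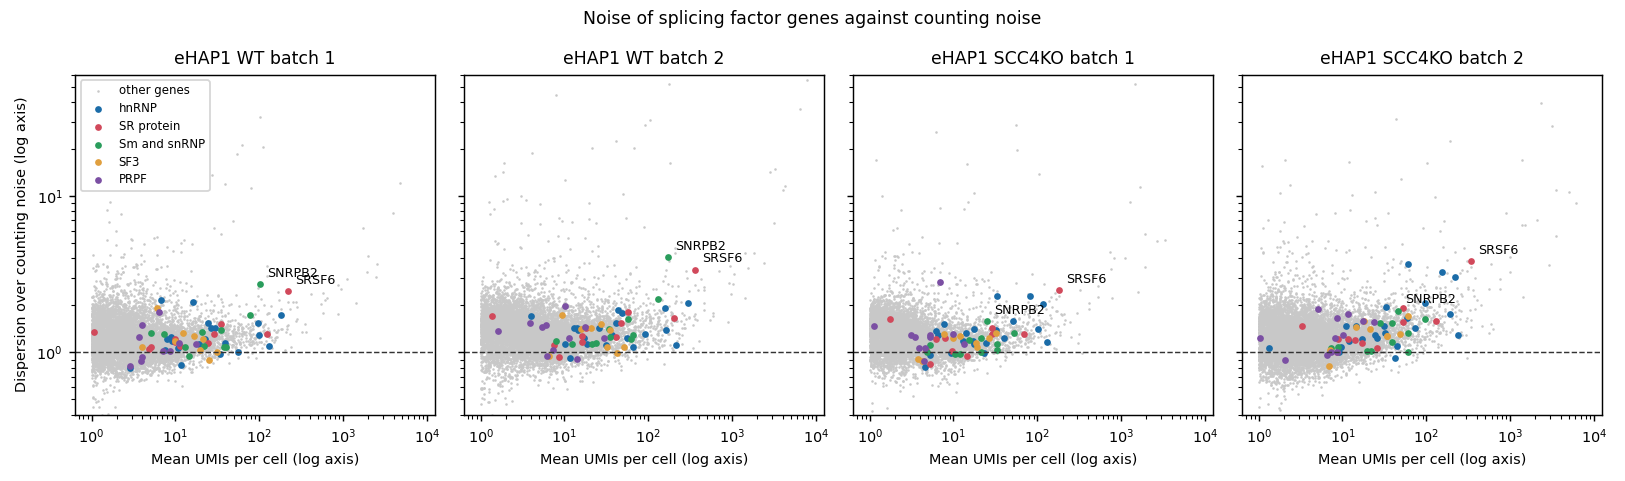
Dispersion over counting noise against mean UMIs per cell, both on log axes, in each eHAP1 batch, for splicing factor genes by family over all other genes in grey, where the dashed line at 1 is counting noise and a few other genes lie outside the axes. Most members lie close to the line, while SNRPB2 and SRSF6 rise above it.

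In wells of HEK293T the members were noisier by CEL-seq2 than by LAST-seq. The median dispersion of the members over 10 wells was 1.11 and 1.18 by LAST-seq and 2.35 and 2.94 by CEL-seq2, beside 1.03 in both LAST-seq libraries and 1.89 and 1.78 by CEL-seq2 over all genes. Among genes of like level the median member stood at percentile 37.5 and 43.2 by LAST-seq and 29.0 and 35.8 by CEL-seq2, below the middle. Wells of lysate gave 1.14 by LAST-seq and 1.37 by CEL-seq2 for the members, and 15 pg of RNA gave 1.13 by LAST-seq. Thinning every eHAP1 cell to 40000 UMIs, which left out 1 WT cell, lowered the medians to 1.07 in WT and 1.15 in SCC4KO. Those over all genes fell from 1.29 to 1.09 in WT and from 1.27 to 1.09 in SCC4KO. Fewer UMIs lower a dispersion that is above 1 in any case, so the fall says nothing of its source.

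Shared variation between cells was hardly detectable in pairs of splicing factor genes at this depth. Over 1830 pairs of 61 members, the median Spearman correlation across the cells of a batch, averaged over batches, was 0.00482 in WT and 0.00865 in SCC4KO, beside 0.00227 and 0.00144 over all pairs of genes with a mean of at least 2 UMIs per cell. The points share a library and the depth of the cell. Pairs within a family gave 0.00229 in WT and 0.0231 in SCC4KO. Correlations above 0.2 were found for 0.874% of member pairs and 0.976% of all pairs in WT, and for 1.69% and 0.811% in SCC4KO.

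**Figure D5:**
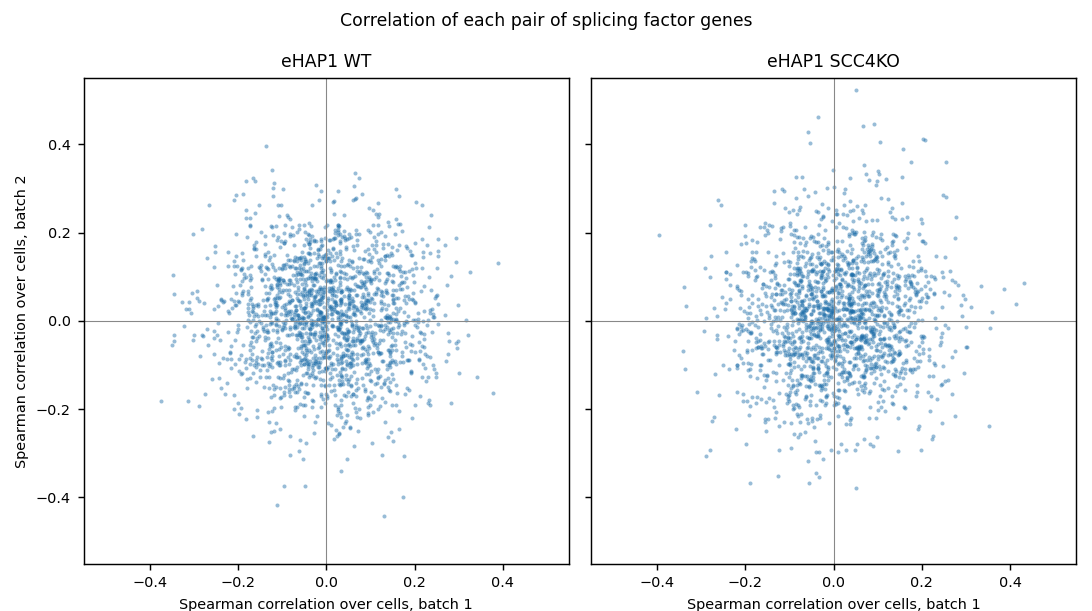
Spearman correlation across cells of each of the 1830 pairs of splicing factor genes in batch 1 (x axis) and batch 2 (y axis), for WT and SCC4KO cells. The clouds are round and centred near 0, with a correlation of -0.022 between batches in WT and 0.055 in SCC4KO.

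The highest WT pairs were PRPF38A with SRSF1 at 0.26 and HNRNPM with HNRNPF, a G-tract binder, at 0.241. SRSF5 with SF3B6, the SF3B subunit next to the branch point, gave 0.24, and SNRPD3, a core Sm protein, gave 0.238 with HNRNPUL2 and 0.236 with SNRPB2. In SCC4KO these pairs were at -0.0921, -0.0184, -0.0852, 0.119 and -0.0193. After thinning each cell to equal depth, the WT values were 0.00577, 0.0355, 0.203 and 0.0461 for PRPF38A with SRSF1, HNRNPM with HNRNPF, SNRPD3 with HNRNPUL2 and SNRPD3 with SNRPB2. The lowest pairs were SNRPA1, a U2 protein, with PRPF4, a U4/U6 protein, at -0.279 (SCC4KO -0.175) and HNRNPL, a CA-repeat binder, with HNRNPF at -0.264 (SCC4KO 0.0952). The values of the pairs in the first batch had almost no relation to those in the other, as the plot of pairs by batch shows.

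The summed share of the members kept to a narrow range between cells but varied more than counting predicts. It had a median of 1.87% and 1.90% of UMIs per cell in the WT batches and 1.84% and 1.85% in SCC4KO, and the 10th to 90th percentiles ran from 1.81% to 1.97% in WT batch 1 and from 1.78% to 1.92% in SCC4KO batch 2. The dispersion of the summed UMIs was 1.88 and 3.12 in the WT batches and 2.26 and 2.73 in SCC4KO, above counting noise. Dispersion grows with the mean, so these values cannot be set beside those of single members. The share had a Spearman correlation with the total UMIs of a cell between -0.10 and 0.094 over the 4 batches, each of 73 to 77 cells, which share that total as the denominator. With the mitochondrial share the correlation was -0.34 and -0.048 in WT and -0.042 and -0.04 in SCC4KO, on the same denominator.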

How the data were processed

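Numbers of UMIs per gene were taken from the tables that the authors deposited for HEK293T and eHAP1 wells. Per the labels and methods, the authors demultiplexed reads with bcl2fastq 2.20, aligned them to GRCh38, counted exonic UMIs with zUMIs, subsampled reads for the assay comparison and removed empty or contaminated wells. The deposited values are whole numbers. Whether those of eHAP1 had been adjusted by ComBat-seq is not given in the sources used here. SMART-seq tables hold reads and were not used here.

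UMIs were summed over the wells of a library or batch, with spike-ins left out, and named by GENCODE 44 (32824 of 32945 genes matched). The members and lists were chosen with earlier results of these data known. LAST-seq and CEL-seq2 were compared with edgeR 4.0.16 in R 4.3.3 (TMM, filterByExpr, quasi-likelihood test, Benjamini-Hochberg). On simulated counts of that comparison (10719 genes, log2 fold 2), it recovered 179 of 199 changed genes with 7 false calls. Nothing says that the replicate libraries came from separate cultures, so p-values measure the spread between these libraries. By the labels, the replicate libraries of an assay also had different spike-in mixes. Genotypes and lines were compared by folds of CPM (UMIs per 1000000 of the library) after adding 0.5 UMI, called past 2-fold, in genes that averaged 1 UMI per cell or more in a group. Batch numbers of eHAP1 cells come from the names of the columns, not from the labels, and folds between genotypes were taken within each batch number. Alternatives were TMM or total scaling, mitochondrial UMIs left out, other filters, thinned cells, left-out libraries, and edgeR or DESeq2 1.42.0 on the sums. Summing each gene with its processed copies was added after the data were seen. Genes were named as the highest and lowest detected member per family by eHAP1 WT level, up to 4 members past a call in each direction, the 5 noisiest and 3 least noisy members with a mean of at least 5 UMIs per cell, the 5 highest and 2 lowest pairs, and members without UMIs. Further members just under a threshold were named after their values were seen. For 1 gene, values are not reported here. Python 3.11.15 with numpy 2.4.6 and pandas 2.3.3 was used.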

Additional observations from a re-analysis of the deposited data

Results flagged for a closer look

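For 4 of the 66 members tested, every LAST-seq library of HEK293T cells lay on the other side of every CEL-seq2 library than in lysate, on the TMM scale. The rule was applied to members only, so the share over all genes is not known and the count is no result about the members. The difference between cells and lysate was not tested, since lysate had 1 library per assay. SF3A3 had a log2 fold of LAST-seq over CEL-seq2 of -0.0146 in lysate (44 and 55 UMIs) and 0.451 in cells (edgeR adjusted p = 0.265). HNRNPA1 had -0.164 in lysate and 0.0927 in cells (adjusted p = 0.846). HNRNPH2 had 0.279 in lysate (56 and 57 UMIs) and -0.315 in cells (adjusted p = 0.451). HNRNPA1L2 had 0.304 in lysate, from 8 UMIs by each assay, and -2.81 in cells (adjusted p = 0.0463).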

How the results depend on the processing

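Of the values that sum up a comparison, 57 stayed within 1.5 times the main count or the spread between libraries under an alternative and 33 moved. For shares, dispersions and correlations that spread is the standard deviation between the libraries or batches. Between eHAP1 batches it is no measure of error and was very small for some values, so slight shifts count as moved. The cause was not tested. Without mitochondrial UMIs the member share was 2.67% in LAST-seq and 1.87% in CEL-seq2 HEK293T, 2.40% in eHAP1 WT and 2.35% in SCC4KO, and the mean over LAST-seq wells was 2.24%. Between genotypes, DESeq2 called 16 members higher and 19 lower, edgeR without the replicate block 17 and 20, and edgeR with the block 15 and 19. The batch served as the block and shares only a number, so pairing is not claimed. Leaving out a batch gave 3 to 5 members higher, 5 without batch 1, and 1 lower. HNRNPA1 lost its call under TMM (log2 fold 1.04) and SRSF12 gained one.

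Between lines, TMM left 5 members higher. DESeq2 called 20 higher and 8 lower, where 10.6% and 11.6% of all genes were. edgeR called 21 and 8, where 15.0% and 18.7% of all genes were. Leaving out a library gave 10 to 14 higher and 1 to 2 lower, with PRPF3 added as lower without HEK293T replicate 2. Between assays, total scaling gave 12 higher and 11 lower, and leaving out a library 4 to 29 higher and 1 to 10 lower. The HNRNPA1L2 log2 fold turned to 0.304 in lysate. Median dispersion after thinning was 1.07 in WT and 1.15 in SCC4KO, and 1.33 in SCC4KO at a mean of at least 5 UMIs. In WT it was 1.18 without batch 2 and 1.37 without batch 1, and in SCC4KO 1.23 and 1.30. The median pair correlation in SCC4KO was 0.0111 from Pearson residuals, 0.00714 without mitochondrial UMIs, 0.00985 between the 10th and 90th percentile of total UMIs and 0.00764 after thinning, and 0.00627 and 0.00763 without batch 2 and batch 1. In WT the last range was -0.00151 to 0.00999. Counting limits members under 5 UMIs per cell most.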
